A study of Mus musculus with 7 samples.

Results

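The collagen chain genes are the 43 of 22552 gene symbols in a mouse skin RNA-seq table that consist of Col, a number, the letter a and a second number. The rule uses the symbol alone and no measured value. In all, 7 groups of cells purified by fluorescence-activated sorting from skin of CD1/C3H mice at postnatal day 50 were sequenced, with 1 library in each. Ear dermis, dorsal dermis and tail dermis came from Wt/Wt animals (WT below), as did ear epidermis and dorsal epidermis. Ear dermis and ear epidermis were also taken from Wt/Koa animals (Koa below), which carry 1 copy of Koa, an allele known in mice as an inversion of part of chromosome 15 with an effect on ear hair. The gates of the sort, the number of animals behind each library and their sex were not given in the sources used here, and the tail library carries no cell type label, so that only its title calls it dermis. The design sets body sites, skin layers and the Koa allele against each other, and with 1 library a group no difference below has a replicate check or a p-value.

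Collagens are proteins of 3 chains wound into a triple helix, which needs a glycine in each triplet of residues along the chain. Fibrillar collagens assemble into the striated fibrils that give dermis and cartilage their tensile strength, and type IV collagen forms the sheet-like network of basement membranes. Other classes sit on fibril surfaces (the FACIT collagens, fibril-associated with interrupted triple helices), build beaded filaments around cells (type VI), anchor the epidermal basement membrane to the dermis (type VII) or span the membrane of basal keratinocytes (type XVII). Chains of one protein are often encoded by separate genes, so that a trimer needs several members to be transcribed in the same cells.

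The glycine repeat that defines the family can be read in the coding sequences, where glycine codons are GG followed by any base. Stretches of 5 consecutive triplets are shown for one fibril-forming chain (Col2a1, codons 201 to 215), one short-chain network former (Col8a1, codons 352 to 366) and one transmembrane chain (Col17a1, codons 648 to 662), because Col2a1 and Col8a1 differed between ear and dorsal dermis and Col17a1 between the layers. They come from GENCODE M21 on GRCm38, read 5′ to 3′ on the coding strand, and capitals mark the GG that opens each glycine codon.
Col2a1: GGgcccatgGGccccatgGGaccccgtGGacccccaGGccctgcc
Col8a1: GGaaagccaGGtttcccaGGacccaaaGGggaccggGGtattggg
Col17a1: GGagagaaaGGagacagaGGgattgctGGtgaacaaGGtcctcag
Its longest unbroken run set the fibrillar genes apart, while the ranges of most other classes overlapped. Col15a1 and Col18a1, at 30 triplets each, and Col28a1, at 28, lay below those ranges. The longest run of triplets opening with a glycine codon was 339 triplets in Col2a1, and it was between 337 and 344 in all fibrillar genes except Col24a1 with 216 and Col27a1 with 217. It was 39 to 66 triplets in the 6 type IV genes, 60 to 61 in the 3 short-chain genes, 56 in Col17a1 and 32 in the FACIT genes Col12a1 and Col14a1. Some chains known to join in one trimer had the same number of triplets and runs. Col9a1, Col9a2 and Col9a3 each held 197 triplets in 6 runs of 5 or more, and Col8a1 and Col8a2 each held 154 in 9. Others differed, such as Col4a1 with 443 triplets in 22 runs and Col4a2 with 429 in 24.

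Values are FPKM, which divide fragments by transcript length and library size, so that levels of different genes can be compared per length. Depth recovered from the steps of low values was 31800000 to 40500000 fragments for the ear and dorsal libraries, and none could be had for the tail. Intervals given with ratios cover counting error only, not the variation between animals. Col1a1, Col1a2 and Col3a1, the chains of the main dermal fibrils, are listed at 0 in 9 of their 12 dermal values, which are failed estimates. Col1a1 stood at 4362 FPKM in WT ear dermis and 10356 in tail dermis, and Col3a1 at 6514 in tail dermis, while epidermal values of the 3 genes were 3.19 to 26.6 FPKM. These 3 genes enter no count, sum or median below, which leaves 40 genes. The values of the tail library have another form: no value has more than 2 decimals, and it lists at 0 a set of 222 genes that all other libraries hold at 10 FPKM or above. Xist stood at 41.5 FPKM in it against at most 0.122 elsewhere, so sex and site cannot be told apart for the tail. The labelled layers fitted their markers in that 8 fibroblast markers summed to 5569 to 9585 FPKM in dermis and 59.0 to 107 in epidermis. The 7 basal keratinocyte markers summed to 14549 to 19368 FPKM in epidermis, but also to 749 in WT ear dermis, 1850 in Koa ear dermis, 6103 in dorsal dermis and 140.5 in tail dermis. The 6 stress response genes summed to 258 to 567 FPKM in the 4 ear libraries and to 3188 to 6292 in the dorsal and tail libraries. Stress response and site thus cannot be told apart between the ear and the other libraries. Adipocyte markers summed to 1.19 FPKM at most.

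Dermis transcribed a broad set of collagen genes and epidermis a narrow one. Members at 1 FPKM or more numbered 34 in WT ear dermis, 36 in Koa ear dermis, 28 in dorsal dermis and 27 in tail dermis, against 16, 18 and 18 in WT ear, Koa ear and dorsal epidermis. All genes at that level numbered 13248, 13363, 13592 and 11606 in the dermal libraries and 11600, 11849 and 12128 in the epidermal ones. The summed level of the collagen genes was 4471, 4764, 2112 and 5151 FPKM in those dermal libraries and 760.4, 1091 and 777 FPKM in the epidermal ones. Of the 40 genes, 37 were highest in a dermal library, 17 of them in tail dermis, and 3 were highest in Koa ear epidermis. This count includes genes near 0, and 4 of the 7 libraries are dermal. The share of all genes highest in dermis is not given, so the count alone says nothing of the family. Only 4 genes (Col6a4, Col10a1, Col19a1 and Col25a1) stayed under 1 FPKM in every library. Col10a1, the collagen of hypertrophic growth plate cartilage, reached 0.17 FPKM at most.

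**Figure D1:**
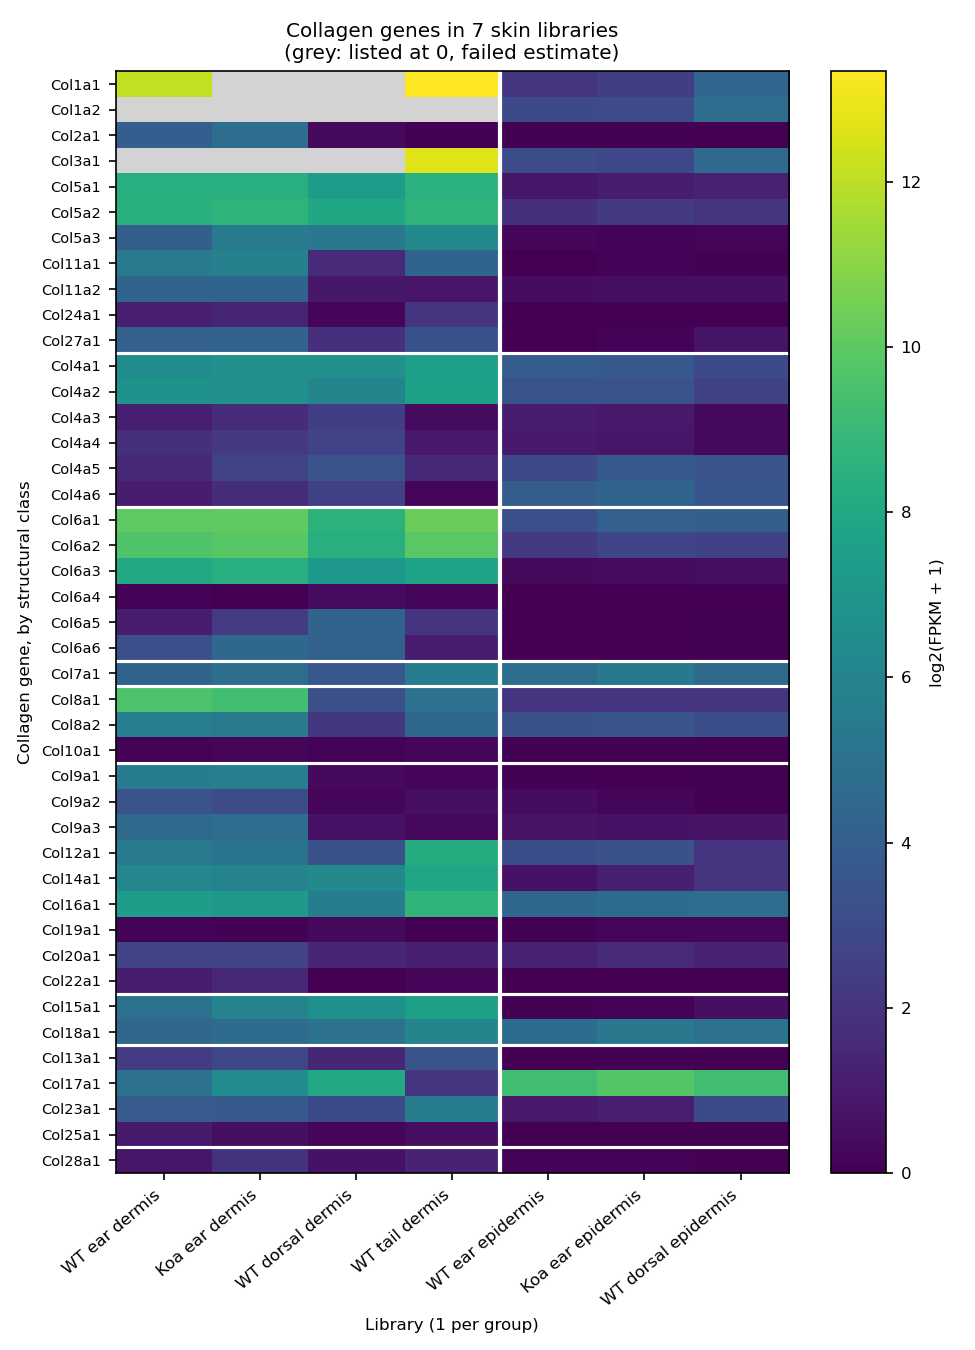
Level of each collagen chain gene in the 7 libraries as log2(FPKM + 1), with genes in rows grouped by structural class and libraries in columns. Brighter cells are higher and grey cells are failed estimates listed at 0. The brightest epidermal cells are those of Col17a1 (599 to 874 FPKM), and Col6a1 and Col6a2 are bright in all dermal columns (333 to 1304 FPKM).

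The share of each class in the summed collagen FPKM set the layers and the sites apart. Beaded filament genes made up 47.8% in WT ear dermis, 50.2% in Koa ear dermis, 42.1% in dorsal dermis and 48.3% in tail dermis, and the 8 counted fibrillar genes 17.3% to 21.7%. Short-chain genes took 18.8% and 14.3% in WT and Koa ear dermis but 0.566% in dorsal and 1.05% in tail dermis. Col8a1 held most of this class in the ear, with 791 of 842 FPKM in WT and 635 of 681 in Koa ear dermis. FACIT genes took 18.9% in tail dermis against 6.60% to 8.38% in the other dermal libraries. In epidermis, transmembrane genes held 78.9% to 80.2%. Nearly all of this was Col17a1, with 599 of 600 FPKM in WT ear, 874 of 875 in Koa ear and 609 of 616 in dorsal epidermis. In dorsal dermis the class held 12.8%, also mostly from Col17a1 (261 of 270 FPKM), against 1.10% to 2.25% in the other dermal libraries. These are shares of RNA without types I and III, and in bulk libraries fewer cells of a type and less RNA per cell cannot be told apart.

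**Figure D2:**
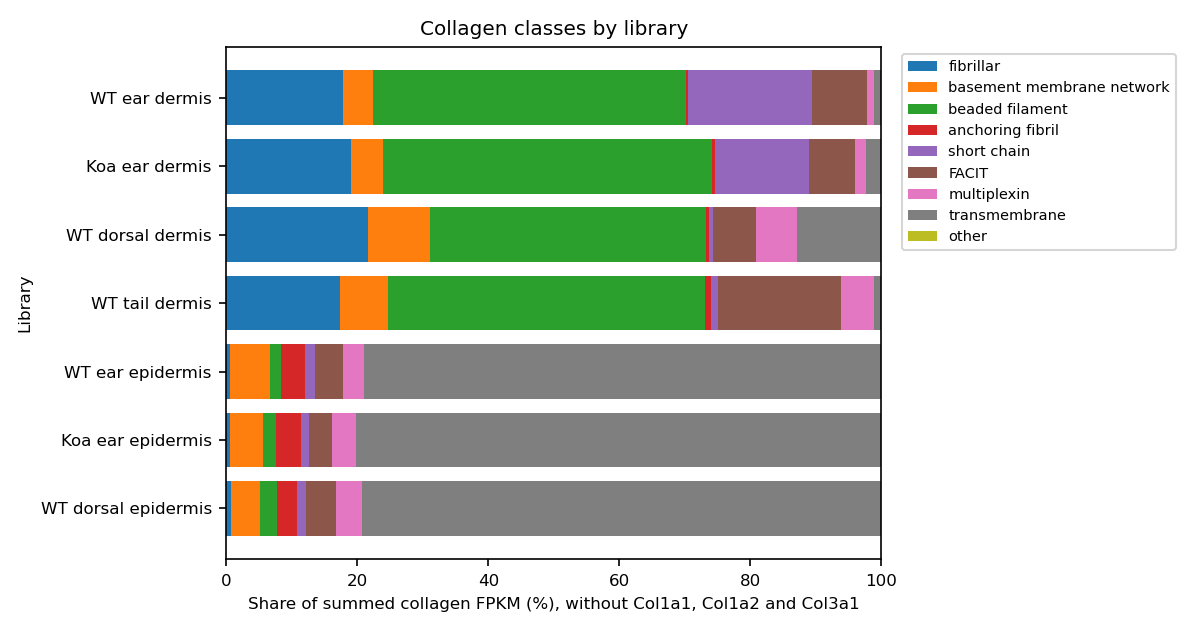
Percent of summed collagen FPKM held by each structural class in the 7 libraries, as stacked bars from 0 to 100, without Col1a1, Col1a2 and Col3a1. The short-chain segment is wide in the ear dermis bars (18.8% and 14.3%) and thin in dorsal and tail dermis (0.566% and 1.05%).

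Of the 40 genes, 36 reached 1 FPKM in a library. All 4 dermal libraries lay above all 3 epidermal ones for 23 of these 36, against 21.1% of all genes with that level. They lay below for 2 of 36, Col4a6 and Col17a1, against 26.4% of all genes. The other 11 overlapped between layers. Within matched sites, differences were taken on log2(FPKM + 1) among genes at 1 FPKM or more in 1 of the 2 libraries, and a difference of 1 or more is counted as higher or lower. Between WT ear dermis and WT ear epidermis, 28 of 35 genes were higher in dermis and 3 lower, against 21.3% and 14.4% of all genes, with a median of 2.98 beside -0.09 for all genes. For the Koa ear the counts were 30 and 3 of 36, against 20.4% and 12.7%, with medians of 2.93 and -0.11. Dorsal dermis gave 19 and 3 of 28, against 16.1% and 8.27%, with medians of 1.83 and -0.14. With a pseudocount of 5 the dorsal count of 22 became 14. The size of these differences moved with the pseudocount.

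**Figure D3:**
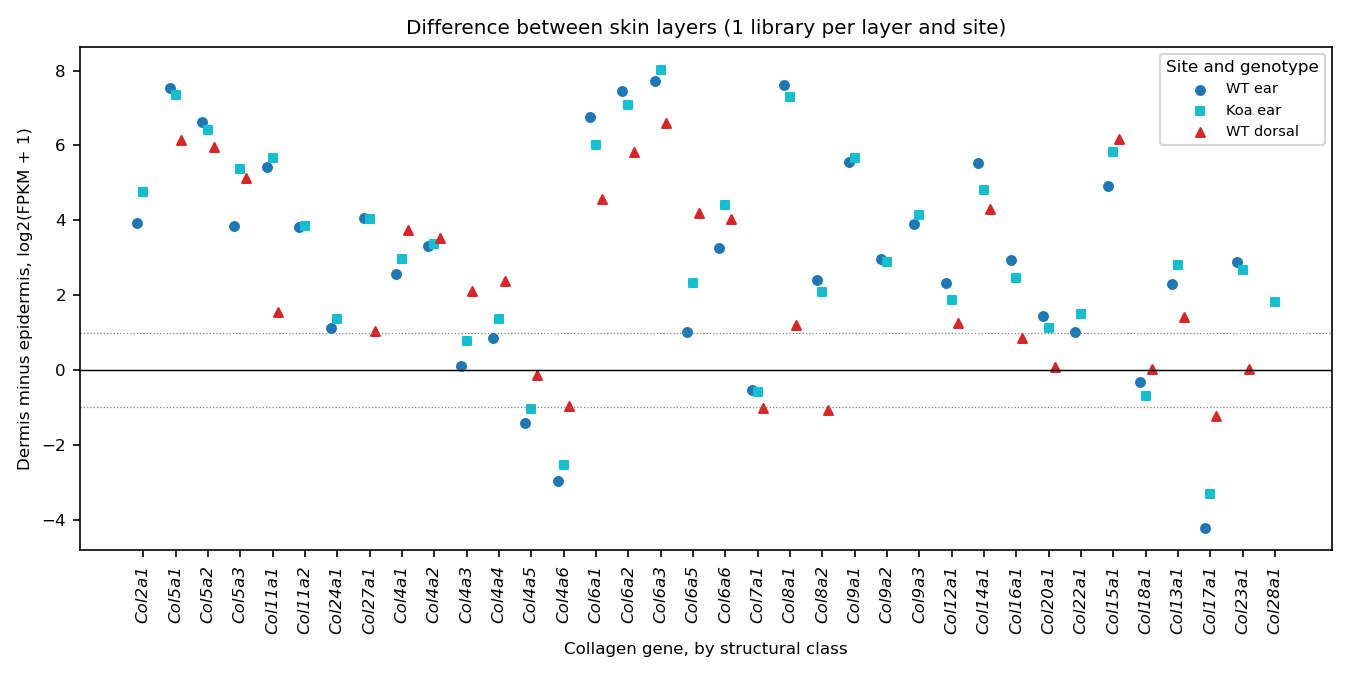
Difference of dermis minus epidermis on the log2(FPKM + 1) scale for each kept gene, with 1 point for each of the WT ear, Koa ear and WT dorsal pairs. Col17a1 lies at -4.21, -3.31 and -1.22, on the epidermal side in all 3 pairs, and Col6a3 at 7.73, 8.02 and 6.60.

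Col17a1 encodes the transmembrane collagen of hemidesmosomes, by which basal keratinocytes hold on to the basement membrane. It stood at 599 FPKM in WT ear, 874 in Koa ear and 609 in dorsal epidermis, and at 31.4 in WT ear, 87.4 in Koa ear, 261 in dorsal and 3 in tail dermis. Every epidermal library was above every dermal one, and the dermal ones differed widely among themselves. In percent of the matching epidermis, its dermal level was 5.24% in WT ear, 10.003% in Koa ear and 42.9% in dorsal skin. The 7 basal keratinocyte markers had medians of 8.72%, 11.8% and 38.5% on the same measure, with ranges of 4.12% to 31.4%, 9.81% to 43.9% and 26.5% to 75.8%. Subtracting that median share of epidermis, with negative results set to 0, left Col17a1 at 0, 0 and 26.9 FPKM. In both ear libraries the amount subtracted was larger than the measured level. The window around its start, chr19:47691993-47692292, is shown because Col17a1 had the highest epidermal level of the family. It runs from 250 bases before to 50 after the start on the minus strand of GRCm38.p6 (RefSeq), with capitals marking the TATA box letters TATAAA, the letters CCAAT of another common promoter element and the GC-rich element GGGCGG, each on either strand.
Col17a1 promoter: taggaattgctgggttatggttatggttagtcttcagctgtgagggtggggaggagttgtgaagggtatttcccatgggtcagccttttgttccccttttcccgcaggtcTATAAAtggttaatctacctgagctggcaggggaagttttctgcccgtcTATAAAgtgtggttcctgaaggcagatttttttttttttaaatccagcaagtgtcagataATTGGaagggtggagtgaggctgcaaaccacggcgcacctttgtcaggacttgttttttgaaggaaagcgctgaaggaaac

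The basement membrane genes split into the ubiquitous pair and chains with other patterns. Col4a1 and Col4a2 encode the chains of the type IV network found under most epithelia and endothelia. Col4a1 stood at 87.4, 106, 107 and 185 FPKM in WT ear, Koa ear, dorsal and tail dermis and at 13.9, 12.5 and 7.11 in WT ear, Koa ear and dorsal epidermis. Col4a2 stood at 109, 108, 66.9 and 194 FPKM in the same dermal libraries and at 10.1, 9.61 and 4.90 in epidermis. Both genes were higher in every dermal than in every epidermal library, and the ratio of Col4a1 to Col4a2 was 0.803, 0.980, 1.60 and 0.958 in dermis and 1.30 to 1.45 in epidermis. The RefSeq bounds of these neighbours on chromosome 8 lie head to head and overlap by 85 bases, so their starts share one stretch of DNA. It is shown for Col4a2 (chr8:11312555-11312854, plus strand, RefSeq GRCm38.p6, capitals as above).
Col4a2 promoter: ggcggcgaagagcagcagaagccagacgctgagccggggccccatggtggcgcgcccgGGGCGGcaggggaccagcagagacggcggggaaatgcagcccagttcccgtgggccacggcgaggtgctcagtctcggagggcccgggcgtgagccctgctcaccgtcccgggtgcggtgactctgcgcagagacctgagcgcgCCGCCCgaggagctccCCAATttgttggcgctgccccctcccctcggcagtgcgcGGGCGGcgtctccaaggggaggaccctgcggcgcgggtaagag
Type IV networks that replace the ubiquitous one contain the chains of Col4a3 to Col4a6, and the network of Col4a5 and Col4a6 is known from the epidermal basement membrane. Col4a5 stood at 1.84, 5.597, 9.49 and 1.80 FPKM in the dermal libraries and at 6.61, 12.7 and 10.5 in the epidermal ones. Col4a6 stood at 0.989, 2.34, 5.08 and 0.18 FPKM in dermis and at 14.5, 18.6 and 10.8 in epidermis. Dorsal dermis was the highest dermal library for both, as it was for the keratinocyte markers, and the subtraction above left 5.45 FPKM of Col4a5 and 0.941 of Col4a6 in it. Both are X-linked and lie head to head with 1274 bases between them. Col4a4 stood at 2.47, 3.57, 5.54 and 0.89 FPKM in dermis and at 0.918, 0.779 and 0.266 in epidermis. Unlike Col4a6, it was lower in dorsal epidermis than in the matching dermis (0.266 against 5.54). Col4a3, its head-to-head neighbour on chromosome 1, was at 4.51 FPKM in dorsal dermis and at 0.282 to 2.22 in the other libraries.

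Col7a1, which encodes the anchoring fibrils under the basement membrane, and Col18a1, a multiplexin of basement membranes whose end fragment is endostatin, overlapped between the layers. Col7a1 stood at 18.7, 27.6, 11.1 and 47.6 FPKM in WT ear, Koa ear, dorsal and tail dermis and at 27.3, 41.6 and 23.3 in epidermis. Col18a1 stood at 19.8, 24.1, 30.6 and 66.0 FPKM in dermis and at 25.1, 39.9 and 29.9 in epidermis. In both cases the tail was the highest library, and Koa epidermis the highest of the epidermal ones. Within the 3 matched pairs Col7a1 was lower in dermis each time, by the size that counts only in dorsal skin (-1.01, and -0.87 under upper quartile scaling). Col15a1, the other multiplexin and a component of vascular and muscle basement membranes, was dermal, with 30.4, 61.3, 103 and 187 FPKM in dermis and 0.0484, 0.0938 and 0.444 in epidermis. The 6 endothelium markers summed to 23.6, 27.0, 32.0 and 65.3 FPKM in the dermal libraries. From WT ear to dorsal dermis 1 of the 6 was higher, against 11.7% of all genes, with a median of -0.21. This was Tek, at 15.04 against 4.87 FPKM. In tail against WT ear dermis 4 of the 6 markers were higher, against 6.32% of all genes. Their part in the Col15a1 levels was not tested.

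The type VI genes Col6a1 and Col6a2 had the highest levels of the counted collagen genes in each dermal library. They encode the filaments that link cells to the fibrillar matrix. Col6a1 stood at 1041, 1087, 384 and 1304 FPKM in WT ear, Koa ear, dorsal and tail dermis and at 8.53, 15.7 and 15.2 in epidermis. Col6a2 stood at 820.1, 938 and 972 FPKM in WT ear, Koa ear and tail dermis, at 333 in dorsal dermis and at 3.71, 5.96 and 4.88 in epidermis. Col6a3, whose long chain completes the classical trimer, stood at 265, 342, 136 and 209.6 FPKM in dermis and at 0.255, 0.323 and 0.416 in epidermis. Dorsal dermis was the lowest dermal library for all 3. The chains were not equally depleted from epidermis: the ratio of Col6a1 to Col6a3 was 2.81 to 6.22 in dermis and 33.4 to 48.7 in epidermis. As a share of the dermal level, epidermal Col6a1 was 0.819%, 1.45% and 3.95% in WT ear, Koa ear and dorsal skin. The fibroblast markers had medians of 0.162%, 0.215% and 0.517%. Their ranges of 0.0619% to 24.0%, 0.0571% to 27.4% and 0.309% to 58.9% include the Col6a1 values. Epidermal Col6a3 was at 0.0962%, 0.0944% and 0.305%.

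Col6a5 and Col6a6 encode chains that can take the place of Col6a3, of which the first is known in human skin from the papillary dermis. Col6a5 stood at 1.015, 4.14, 18.5 and 2.98 FPKM in WT ear, Koa ear, dorsal and tail dermis and at 0.00544, 0.0217 and 0.0694 in epidermis. Col6a6 stood at 8.69, 20.9, 16.4 and 1 FPKM in the dermal libraries and at 0.00718, 0.0226 and 0.0641 in epidermis. Dorsal dermis was thus the highest library for Col6a5 and the lowest dermal one for Col6a1. The ratio of dorsal to WT ear dermis was 18.2 for Col6a5 (95% counting interval 16.3 to 20.4) and 0.369 for Col6a1 (0.365 to 0.373). These genes lie at separate places, Col6a1 and Col6a2 on chromosome 10 and Col6a4, Col6a5 and Col6a6 in a row on chromosome 9. Col6a4, a pseudogene in humans, was at 0.294 FPKM at most.

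A set of collagens was higher in ear dermis than in dorsal and tail dermis. Both ear dermal libraries lay above dorsal and tail dermis for 12 of the 36 genes, which is near the 35.3% of all genes, so this count alone says nothing of the family. In a stricter count added after the values were seen, both were at least 2-fold above both other libraries for 10 of 36 genes, against 3.55% of all genes. These were Col2a1, Col8a1, Col8a2, Col9a1, Col9a2, Col9a3, Col11a1, Col11a2, Col20a1 and Col22a1. Of these, Col2a1, Col9a1, Col9a2, Col9a3, Col11a2 and Col22a1 were under 1 FPKM in dorsal and tail dermis. They passed the filter only through the ear libraries in which they were high. The stricter count therefore describes these libraries and cannot serve as a test of the family. Both ear libraries lay below the other 2 for 4 genes (Col4a1, Col14a1, Col15a1 and Col18a1), against 11.2% of all genes. Between dorsal and WT ear dermis, 7 of 35 genes were higher in dorsal dermis and 15 lower, against 11.7% and 7.05% of all genes, with a median of -0.92 beside -0.05. Centring on the fibroblast markers, whose median difference was -0.58, brought that median to -0.34 beside 0.54 for all genes. The counts came to 10 higher and 11 lower, and the shares of all genes under this setting are not given. Col5a1, Col6a1, Col6a2 and Col20a1 then no longer passed a difference of 1.

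**Figure D4:**
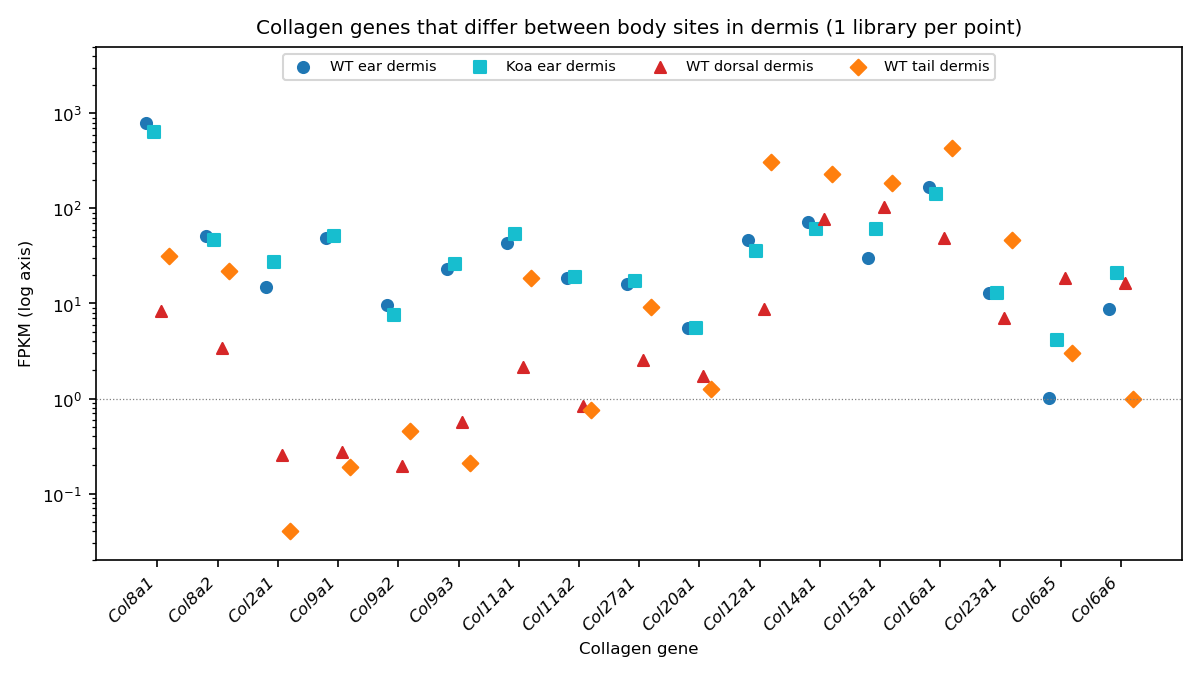
FPKM on a log axis in the 4 dermal libraries for 17 collagen genes, with 1 point per library. The short-chain and cartilage-type genes are higher in both ear libraries (Col8a1 at 791 and 635 FPKM against 8.43 and 32.0), and Col12a1 stands apart in the tail (307 against 8.83 to 46.1).

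On the log2(FPKM + 1) scale, Col8a1 showed the widest difference between dorsal and WT ear dermis of any kept member, with -6.39 before -5.30 for Col9a1. With a pseudocount of 0.1 the order was reversed, with -6.54 for Col8a1 and -7.04 for Col9a1. Col8a1 encodes a short-chain collagen that forms the hexagonal lattice of Descemet's membrane in the cornea. The gene stood at 791 FPKM in WT ear, 635 in Koa ear, 8.43 in dorsal and 32.0 in tail dermis, and at 3.03, 3.06 and 3.08 in epidermis. Both ear dermal libraries were far above the rest, and the ratio of dorsal to WT ear dermis was 0.0107 (0.0101 to 0.0112). Col8a2, its trimer partner, stood at 50.8, 46.1, 3.42 and 21.8 FPKM in dermis and at 8.78, 10.1 and 8.22 in epidermis. Its epidermal levels lay above dorsal dermis and below the other dermal libraries. The ratio of Col8a1 to Col8a2 was 15.6, 13.8, 2.46 and 1.47 in dermis and 0.304 to 0.375 in epidermis. In dorsal dermis Col8a2 was at 41.6% of its epidermal level, where the basal keratinocyte markers had a median of 38.5%. The subtraction above left 0.254 FPKM of Col8a2 and 7.24 of Col8a1 there, so the dorsal ratio depends on the keratinocyte share. The window around the start of Col8a1 (chr16:57754688-57754987, minus strand, RefSeq GRCm38.p6) is shown for this contrast, with capitals as above.
Col8a1 promoter: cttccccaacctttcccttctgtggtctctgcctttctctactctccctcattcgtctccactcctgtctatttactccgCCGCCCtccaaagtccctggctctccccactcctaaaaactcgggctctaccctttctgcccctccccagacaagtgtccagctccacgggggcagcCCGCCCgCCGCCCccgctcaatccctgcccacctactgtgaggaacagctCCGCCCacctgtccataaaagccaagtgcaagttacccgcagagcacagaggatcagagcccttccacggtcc

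Collagens known from hyaline cartilage were at measurable levels in sorted ear dermis. Col2a1 encodes the main cartilage fibril. It stood at 15.1 FPKM in WT ear, 27.3 in Koa ear, 0.255 in dorsal and 0.04 in tail dermis, and at 0.0524, 0.0418 and 0.0200 in epidermis. Both ear dermal libraries lay above every other library, and the ratio of dorsal to WT ear dermis was 0.0169 (0.0121 to 0.0231). Type IX collagen, which coats the type II fibril, needs 3 chains. Col9a1 stood at 49.4, 51.0, 0.277 and 0.19 FPKM in the dermal libraries and at 0.0672, 0.0230 and 0.0514 in epidermis. Col9a2 stood at 9.70, 7.50, 0.194 and 0.45 FPKM in dermis and at 0.36, 0.144 and 0.0497 in epidermis. Col9a3 stood at 23.3, 26.0, 0.573 and 0.21 FPKM in dermis and at 0.637, 0.545 and 0.657 in epidermis. The 3 genes were thus on together in both ear dermal libraries, with Col9a1 the highest. Col11a2 is known to nucleate cartilage fibrils with Col11a1. It stood at 18.6, 18.9, 0.835 and 0.76 FPKM in dermis and at 0.376, 0.392 and 0.45 in epidermis. Col11a1 stood at 42.9, 54.2, 2.15 and 18.5 FPKM in dermis and at 0.0210, 0.0918 and 0.0714 in epidermis. The ratio of Col11a1 to Col11a2 in tail dermis was 24.4 against 2.31 to 2.86 in the other dermal libraries. Under upper quartile scaling, Col11a1 and Col8a2 in tail against WT ear dermis came to -0.79 and -0.81 and no longer passed a difference of 1.

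The 10 cartilage markers other than collagens summed to 971 FPKM in WT ear dermis, 1115 in Koa ear dermis, 43.0 in dorsal and 27.7 in tail dermis. Of the 9 kept, 8 were lower in dorsal than in WT ear dermis, against 7.05% of all genes, with a median of -3.38. All 9 kept were lower in tail than in WT ear dermis, against 27.0% of all genes, with a median of -3.27. Acan, the large proteoglycan of cartilage, stood at 18.8, 22.3, 1.04 and 3.46 FPKM in the dermal libraries. Sox9, also known from hair follicles, stood at 22.7, 20.2, 27.3 and 1.46 FPKM in these libraries, so that it was low in the tail and not in dorsal dermis. Tendon markers summed to 541, 535, 144 and 478 FPKM. The part of cartilage or tendon cells in the collagen differences was not tested. Among the further ear-high members, Col20a1, a FACIT gene, stood at 5.53, 5.50, 1.71 and 1.27 FPKM in dermis and at 1.40, 2.00 and 1.55 in epidermis. Col27a1, a fibrillar collagen of cartilage, stood at 16.1, 17.1, 2.54 and 9.29 FPKM in dermis and at 0.0266, 0.0987 and 0.705 in epidermis. Col22a1, known from tissue junctions such as that of muscle and tendon, was at 1.006 and 1.82 FPKM in the ear dermal libraries and at 0.12 or less elsewhere. The window around the start of Col11a2 (chr17:34038888-34039187, plus strand, RefSeq GRCm38.p6) is shown as an ear-high cartilage gene, with capitals as above.
Col11a2 promoter: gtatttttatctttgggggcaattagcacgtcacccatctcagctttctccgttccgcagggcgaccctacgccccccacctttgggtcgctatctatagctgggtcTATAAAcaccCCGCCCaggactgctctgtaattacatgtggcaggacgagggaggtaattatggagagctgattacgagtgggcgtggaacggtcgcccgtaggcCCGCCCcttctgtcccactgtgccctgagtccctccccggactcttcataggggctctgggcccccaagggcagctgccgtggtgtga

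The 4 windows printed here differ in the motifs searched. Windows were found for 35 member genes, with 38 starts. TATAAA occurred in 5 of the 38, CCAAT in 13 and GGGCGG in 23, on either strand, and no 2 of these motifs overlapped in a member window. Over all 32851 RefSeq windows of this length the shares were 13.6%, 37.4% and 35.7%. Matches describe letters in a window and not sites of binding.

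Type V genes are the fibrillar members best known from soft tissue. Their product co-assembles with type I and sets fibril diameter. Col5a1 stood at 340.1, 342, 163 and 366 FPKM in WT ear, Koa ear, dorsal and tail dermis and at 0.824, 1.12 and 1.30 in epidermis. Col5a2 stood at 348, 404, 249.5 and 412 FPKM in dermis and at 2.55, 3.76 and 2.99 in epidermis. For both, dorsal dermis was the lowest dermal library. Col5a3, the less common type V chain, had another pattern, with 15.5, 44.99, 39.998 and 81.7 FPKM in dermis and 0.147, 0.106 and 0.161 in epidermis. WT ear dermis was its lowest dermal library, and tail dermis differed from it by 2.33. Col24a1, a fibrillar collagen known from bone, was at 1.16, 1.60, 0.143 and 3.05 FPKM in dermis.

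Tail dermis was higher than WT ear dermis for 10 of 35 genes and lower for 11, against 6.32% and 27.0% of all genes, with medians of 0.10 and -0.51. By class, 3 of 8 FACIT genes were higher and 4 lower, 2 of 3 transmembrane genes were higher and 1 lower, and both multiplexins were higher. Upper quartile scaling and centring on fibroblast markers each gave 13 higher and 9 lower of the 35. Each of these settings also moved the all-gene median to -0.18. The shares of all genes under them are not given, and the shares above belong to the unscaled values. Against dorsal dermis, 17 of 30 were higher and 7 lower, against 7.05% and 29.0%, with medians of 1.12 and -0.48. All genes together were low in the tail, and upper quartile scaling brought these all-gene medians to -0.18 and -0.20. Col12a1, a FACIT collagen of tendon and other dense tissue, stood at 46.1, 35.7, 8.83 and 307 FPKM in WT ear, Koa ear, dorsal and tail dermis and at 8.35, 9.01 and 3.15 in epidermis. Col14a1, a fibril-associated relative, stood at 71.9, 61.2, 78.3 and 231 FPKM in dermis and at 0.579, 1.23 and 2.998 in epidermis. Col16a1, which lies near the fibrils of the upper dermis, stood at 168, 142, 49.1 and 430.5 FPKM in dermis and at 21.1, 24.9 and 26.7 in epidermis. The tail was highest for all 3, while the lowest dermal library was dorsal for Col12a1 and Col16a1 and Koa ear for Col14a1. Col23a1, a transmembrane collagen, stood at 12.97, 12.95, 7.10 and 46.7 FPKM in dermis and at 0.906, 1.19 and 6.94 in epidermis. Col13a1, a transmembrane collagen of cell adhesion sites, stood at 4.02, 6.48, 1.66 and 9.94 FPKM in dermis and at 0.0275, 0.0628 and 0 in epidermis. Col25a1, the remaining transmembrane member, was at 0.934 FPKM at most, and Col19a1 at 0.242 at most.

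In Koa ear dermis, 6 of 36 genes were higher than in WT ear dermis and 0 lower, against 1.71% and 1.07% of all genes, with a median of 0.27 beside 0.00. The 6 were Col4a5, Col5a3, Col6a5, Col6a6, Col17a1 and Col28a1. With a pseudocount of 0.1 the count was 8, and with 5 it was 2, Col5a3 and Col17a1. Col15a1 fell just short at 0.99, with 61.3 against 30.4 FPKM and a ratio of 2.02 (1.95 to 2.08). The Koa to WT ratio was 2.91 for Col5a3 (2.79 to 3.03), 4.08 for Col6a5 (3.62 to 4.61) and 2.40 for Col6a6 (2.30 to 2.51). Their dorsal dermis levels (39.998, 18.5 and 16.4 FPKM) also lay above WT ear dermis. For Col4a5 the ratio was 3.04 (2.72 to 3.40), and for Col17a1 it was 2.78 (2.70 to 2.87). Basal keratinocyte markers moved with these, with 3 of 7 higher and a median of 0.90. After the subtraction above, Col4a5 stood at 4.10 FPKM in Koa and 1.27 in WT ear dermis. Col17a1 was set to 0 in both, because the amount subtracted was larger than its level. The 6 hair follicle keratins and related genes summed to 38.5 FPKM in Koa and 1.31 in WT ear dermis, with 6 of 6 higher, and their part in the collagen differences was not tested. Col28a1, known from the sheath of peripheral nerves, stood at 0.757, 2.85, 0.56 and 1.47 FPKM in WT ear, Koa ear, dorsal and tail dermis. The 5 Schwann cell markers summed to 45.5, 86.8, 31.1 and 97.9 FPKM in the same libraries, and their part was not tested.

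**Figure D5:**
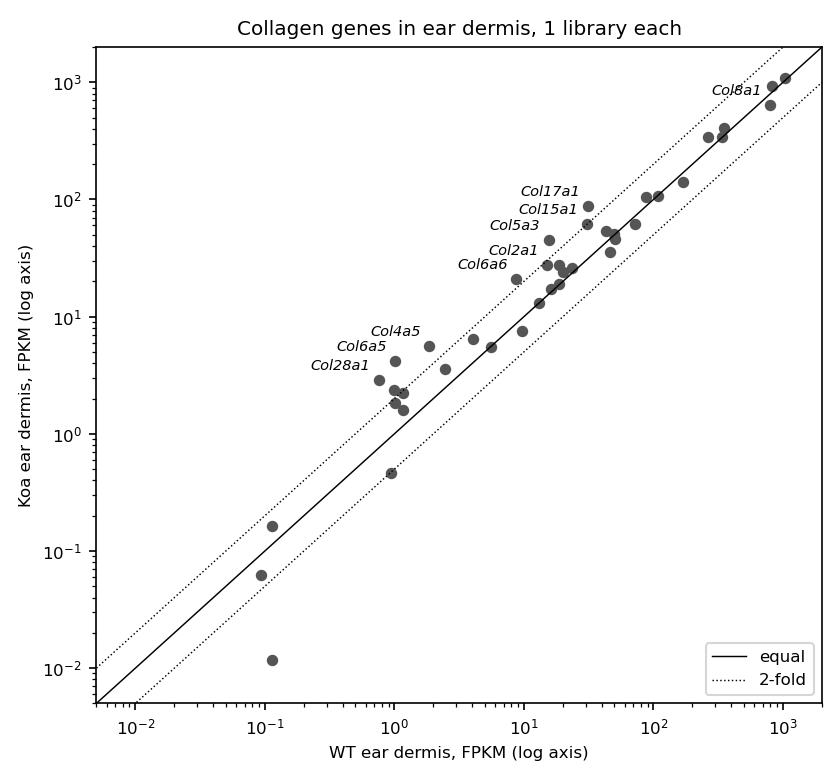
FPKM in Koa against WT ear dermis for the collagen genes, both axes logarithmic, with the line of equal level. Most points lie close to the line, and the 6 genes past a difference of 1 lie above it, from Col28a1 (2.85 against 0.757) to Col17a1 (87.4 against 31.4).

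The abundant dermal collagens differed between the genotypes by less than the size that counts. The Koa to WT ratio was 1.04 for Col6a1 (1.04 to 1.05) and 1.29 for Col6a3 (1.28 to 1.30). It was 0.803 for Col8a1 (0.796 to 0.809), 1.16 for Col5a2 (1.15 to 1.17) and 0.847 for Col16a1 (0.833 to 0.862). For Col5a1 it was 1.00 (0.996 to 1.014). The fibroblast and cartilage marker medians differed by 0.07 and 0.02. On chromosome 15, 3 members lie between Trps1 (chr15:50654757-50890631) and Hoxc13 (chr15:102921131-102928814), which is part of the cluster used as viewpoint in the contact data of this study. They were Col14a1 (chr15:55307644-55520803) at 61.2 FPKM in Koa and 71.9 in WT ear dermis, Col22a1 (chr15:71795795-72150979) at 1.82 and 1.006, and Col2a1 (chr15:97975602-98004724) at 27.3 and 15.1. None of these reached a difference of 1, the widest being 0.82 for Col2a1. Between Koa and WT ear epidermis, 0 of 19 genes were higher and 0 lower, against 2.15% and 0.854% of all genes, with medians of 0.32 and -0.01. The widest was Col4a5 with 0.85. Between dorsal and WT ear epidermis, Col14a1 and Col23a1 were higher and Col12a1 lower, which is 2 and 1 of 19 against 11.5% and 5.47% of all genes, with medians of 0.09 and -0.02. Fibroblast markers also differed there, with 3 of the 5 kept higher and a median of 1.09.

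Genes that build, process and bind collagen were compared in the same way, with the shares of all genes given above as background. Between Koa and WT ear dermis no gene of 19 kept for chain modification and folding, 7 for propeptide removal, 5 for crosslinking and 8 receptors differed by 1. Between dorsal and WT ear dermis, 1 of 19 modification genes was higher and 2 lower, against 11.7% and 7.05% of all genes, with a median of -0.07. The same shares stand beside the counts of the other lists in this comparison. The higher one was Serpinh1, the collagen chaperone Hsp47, at 528 against 146 FPKM. It is also a heat shock gene, and the stress response genes were higher there as well (6 of 6). The part of the stress response in the Serpinh1 difference was not tested. Crtap, part of the prolyl 3-hydroxylation complex, was lower at 51.6 against 115 FPKM, as was Plod2, a lysyl hydroxylase, at 2.40 against 6.57. Among the 7 genes for propeptide removal 0 were higher and 2 lower, with a median of 0.02. Adamts3, which can cleave the N-propeptide of procollagen II, stood at 8.45, 7.97, 0.247 and 0.60 FPKM in WT ear, Koa ear, dorsal and tail dermis. It was high in both ear dermal libraries and low in the others. The second was Adamts14, a relative, at 6.499 FPKM in dorsal against 14.96 in WT ear dermis.

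Of the 5 crosslinking enzymes, the lysyl oxidases, 3 were lower in dorsal than in WT ear dermis, with a median of -1.01. Loxl2 stood at 96.8 against 196 FPKM, Loxl3 at 6.70 against 18.01 and Loxl4 at 16.96 against 50.4. Lox and Loxl1 stood at 122 and 68.3 FPKM in dorsal against 161 and 60.0 in WT ear dermis. Of 9 kept receptors 1 was higher and 1 lower, with a median of 0.05. The integrin chain gene Itga10, a type II collagen receptor of chondrocytes, stood at 11.3, 9.14, 0.823 and 2.15 FPKM in WT ear, Koa ear, dorsal and tail dermis. Ddr1, the collagen receptor kinase of epithelia, stood at 36.8 FPKM in dorsal and 11.4 in WT ear dermis, with 73.5 to 85.5 in epidermis. In tail against WT ear dermis, 5 of 21 modification genes were higher and 1 lower, against 6.32% and 27.0% of all genes. Pcolce, which enhances C-propeptide removal, stood at 1109.6 against 428 FPKM. Of the 5 higher modification genes, Mia3 is listed at 0 in the other 6 libraries. All 5 lysyl oxidases were higher in dermis than in epidermis in each of the 3 matched pairs, with medians of 5.84 in WT ear, 5.68 in Koa ear and 4.37 in dorsal skin.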

How the data were processed

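RNA of sorted skin cells was sequenced in 7 libraries. The deposited values are FPKM computed by the authors with TopHat2 2.0.13 and Cufflinks 2.2.1, per the submitters' processing notes, which name the builds GRCm38 and mm9 without their roles. The annotation and strand handling are not given in the sources used here. All members, gene lists and rules were chosen with earlier results of these data known. Values in all 7 libraries were printed for counted members at 5 FPKM or more in 1 library, and the others were given by range or by name. Of the other lists, up to 4 members each way with the widest differences were named.

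Differences were taken on log2(FPKM + 1) among genes at 1 FPKM or more in 1 of the 2 libraries, and 1 was the size that counted. This scale understates differences of low genes. Counting intervals (95%, exact binomial) rest on fragments estimated from recovered depth and transcript length. For depth, 75.4% to 77.8% of low values came within 0.1 of whole fragments, and the recovery was tested on simulated data. Genes that overlap a neighbour, such as the type IV pairs, may share reads. Alternatives were pseudocounts of 0.1 and 5, no filter, upper quartile scaling and, chosen after seeing the data, centring on fibroblast markers and subtraction of the keratinocyte share. Positions come from RefSeq on GRCm38. Python 3.11.15, numpy 2.4.6, pandas 2.3.3 and scipy 1.17.1 were used.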

Additional observations from a re-analysis of the deposited data

Results flagged for a closer look

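Col8a2 differed in direction between the layers at different sites. On the log2(FPKM + 1) scale it was 2.41 higher in WT ear dermis than in WT ear epidermis (50.8 against 8.78 FPKM), and -1.06 in dorsal dermis relative to dorsal epidermis (3.42 against 8.22 FPKM). Subtracting the keratinocyte share left 0.254 FPKM of Col8a2 in dorsal dermis and 50.1 in WT ear dermis. Each group has 1 library, and the difference between the sites was not tested.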

How the results depend on the processing

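No paired analysis was possible because each group has 1 library, and no library could be left out. Over all comparisons, 64 of the alternative values for counts and medians stayed close to those reported and 20 moved, a count by more than 1.5 times or a median by more than 0.25. No median of at least 1 in size changed sign. A change of sign was not scored for smaller medians, nor a change of direction for counts. The shares of all genes past the size rule are not given for the alternatives. With a pseudocount of 5, the counts past a difference of 1 were 2 for Koa against WT ear dermis, 1 for dorsal against ear epidermis and 14 for dorsal dermis against epidermis, where a pseudocount of 0.1 gave 5 for the second. Medians with pseudocounts of 0.1 and 5 were 4.41 and 1.99 for WT ear dermis against epidermis, 3.73 and 0.81 for dorsal dermis against epidermis, and 5.04 and 2.13 for Koa ear dermis against epidermis. A pseudocount of 5 gave -0.57 for dorsal against ear dermis. Without a filter the medians were 0.0685 for Koa against WT ear epidermis, 0.69 for tail against dorsal dermis, 2.72 for WT ear dermis against epidermis and 0.73 for dorsal dermis against epidermis. Upper quartile scaling gave 0.49 for tail against ear dermis and 1.46 for tail against dorsal dermis. Centring on fibroblast markers gave -0.34 for dorsal against ear dermis, 0.43 for tail against ear dermis and 0.77 for tail against dorsal dermis. The all-gene medians under this centring were 0.54, -0.18 and -0.84 in the same order. Low levels have few fragments, and pseudocounts act on them by construction. The cause of the other moves was not tested. Of the values for single genes, 657 kept their side of the size rule and 44 no longer passed it. The subtraction of the keratinocyte share gave no value for a gene left under 1 FPKM in both libraries.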
